A study of Mus musculus with 4 samples.

Results

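The genes described here are the 37 genes of the mouse mitochondrial genome, chosen as every gene of the deposited table whose symbol starts with mt-, of 51098 genes in all. They are 13 protein genes, 2 ribosomal RNA (rRNA) genes and 22 transfer RNA (tRNA) genes. The samples were embryonic mouse stomachs collected at E15.5, counted in days of embryonic development. The genotype labels give 2 groups of 2 samples, Fgf9LacZ/LacZ stomachs (Fgf9_null here) and Fgf9LacZ/+ stomachs as controls (Fgf9_het here). By these labels the LacZ allele is carried by both groups. The titles of the control samples call them WT instead, and the genotype label was followed here. Fgf9 encodes a secreted fibroblast growth factor, and the stated question is how its loss changes the embryonic stomach. The sources used here do not say whether a sample was 1 embryo or a pool.

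The mitochondrial genome is a small circle present in many copies per cell. Both of its strands are transcribed into long precursor RNAs, and the tRNAs that lie between the other genes are cut out, which frees the messenger RNAs and the rRNAs. The messenger RNAs encode subunits of respiratory complexes I, III, IV and V, whose other subunits, like all of complex II, come from nuclear genes. The 12S and 16S rRNAs (mt-Rnr1 and mt-Rnr2) and the tRNAs serve only the ribosomes inside the organelle. Copies of stretches of this genome also lie in the nuclear chromosomes as pseudogenes.

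Column totals were 19537211 and 22713416 estimated counts for Fgf9_null replicates 2 and 3, and 19269851 and 22425865 for Fgf9_het replicates 2 and 3. Same-numbered columns held nearly the same values under both labels: of the genes whose counts in both columns sum to 10 or more, 60.8% of 21487 were equal within 0.001 reads in the replicate 2 columns, and 59.1% of 21788 in the replicate 3 columns. For Fgf9 the Fgf9_null columns held 133 and 131 reads, and the Fgf9_het columns 133 and 131 as well. This count does not check the genotype, since same-numbered columns held nearly the same values for most genes. The LacZ allele may also keep parts of Fgf9. A few genes, such as Rn7s1, did differ between the labels, and their values are given with the comparison of the labels. The table also has 2 value columns with no name, so it is not certain that each name stands over its own column. Same-numbered columns were averaged and counted as 1 sample, library 2 and library 3, and levels are given in CPM (the count scaled to a column total of 1e+06) as mean ± SD over n = 2 libraries. Stomach markers were present in both libraries, with Barx1 of the stomach mesenchyme at 129 and 136 CPM and the smooth muscle myosin gene Myh11 at 2081 and 2250 CPM. Markers of other organs were low but not absent: 3 liver genes summed to 25.8 and 45.6 CPM, 3 skeletal muscle genes to 10.2 and 7.84 CPM and 3 heart genes to 7.31 and 4.94 CPM, most of the last from Tnnt2, at 6.86 and 4.30 CPM.

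Sequence matters to these genes because the deposited counts were divided among near-identical copies and overlapping genes. GENCODE M21 transcripts of 17 nuclear genes matched a mitochondrial transcript at 90% identity or more over at least 100 bases, on the same strand, and these genes matched 11 of the 13 protein genes. Of the 17, 7 lie side by side on chromosome 1 (GRCm38, 24611535 to 24616197, minus strand), all annotated as unprocessed pseudogenes, and follow the order of the mitochondrial genome from mt-Co1 to mt-Nd4. The mt-Co2 copy Gm28661 (chromosome 1, 24614885 to 24615565) is identical to mt-Co2 (chromosome M, 7013 to 7696) over 681 of its 684 bases. The ends of both transcripts show that only the stop codon of mt-Co2, in capitals, is missing from the copy.
mt-Co2: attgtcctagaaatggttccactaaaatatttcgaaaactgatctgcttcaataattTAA
Gm28661: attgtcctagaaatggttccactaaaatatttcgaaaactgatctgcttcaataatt

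Gm10925 is identical to mt-Atp6 over 678 of 681 bases, Gm28437 to mt-Co3 over 783 of 784, Gm10222 to mt-Nd4l over 294 of 297 and Gm28439 to the first 876 bases of mt-Nd4. Gm29216 covers the last part of mt-Co1, 483 bases at 99.8% identity, and Gm28438 covers 345 bases of mt-Nd3 with 1 difference, T3C (the mitochondrial base, its position from the first base of the gene, then the base of the copy). The starts of these last copies hold the differences, in capitals below. In mt-Co1 they are T1056A, C1057T, A1059G, A1060G, C1062A and A1066T.
mt-Co1: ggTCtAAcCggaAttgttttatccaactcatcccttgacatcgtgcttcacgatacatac
Gm29216: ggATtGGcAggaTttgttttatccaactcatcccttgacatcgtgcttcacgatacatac
mt-Nd3: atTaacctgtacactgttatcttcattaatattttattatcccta
Gm28438: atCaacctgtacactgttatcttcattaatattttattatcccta

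Neighbouring mitochondrial genes also share bases. mt-Atp8 and mt-Atp6 overlap by 43 bases (chromosome M, 7927 to 7969) and mt-Nd4l and mt-Nd4 by 7 bases (10167 to 10173), all on the plus strand. Both pairs stay together on 1 messenger RNA, which is read in different frames. The end of the first gene and the start of the second are shown for each pair with the overlap in capitals.
mt-Atp8: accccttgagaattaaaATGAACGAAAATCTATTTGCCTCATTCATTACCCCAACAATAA
mt-Atp6: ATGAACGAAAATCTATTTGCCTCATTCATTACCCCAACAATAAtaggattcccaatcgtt
mt-Nd4l: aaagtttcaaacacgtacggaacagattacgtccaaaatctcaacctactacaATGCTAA
mt-Nd4: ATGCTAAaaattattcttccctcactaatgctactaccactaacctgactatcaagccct

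The lengths of 10 of the 13 protein genes are whole numbers of codons ending in a full stop codon. The annotated mt-Co3, mt-Cytb and mt-Nd4 end 1 base past the last full codon, and that base is a T, in capitals below. It is textbook knowledge that such stop codons are completed by the poly(A) tail.
mt-Co3 end: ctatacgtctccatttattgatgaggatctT
mt-Cytb end: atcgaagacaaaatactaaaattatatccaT
mt-Nd4 end: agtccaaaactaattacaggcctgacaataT

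Messenger RNAs made up nearly all of the mitochondrial counts, which were taken after the removal of rRNA. The tRNAs are also shorter than 1 sequencing read, so the shares of counts are not the composition of mitochondrial RNA. The 37 genes summed to 10966 CPM in library 2 and 11076 CPM in library 3, or 1.10% ± 0.0078 of all counts (SD, n = 2). The 13 protein genes held 10945 and 11054 CPM of this. The 2 rRNA genes held 20.1 and 22.0 CPM, and the 22 tRNA genes 0.206 and 0.0886 CPM. In bulk tissue, fewer cells of a type and less RNA per cell cannot be told apart. With the 17 nuclear copies added, the sum was 13474 and 13813 CPM.

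The protein genes were led by complex IV, the cytochrome c oxidase that passes electrons to oxygen. To compare genes, levels were divided by gene length (CPM per kb of annotated length, with no correction for the loss of fragments at short genes). mt-Co1, the catalytic subunit (chromosome M, 5328 to 6872), stood highest, at 2141 CPM per kb in library 2 and 2070 in library 3. mt-Co3 (8607 to 9390), a structural subunit, had 1337 and 1413 CPM per kb. mt-Co2, which takes up the electrons from cytochrome c, had only 363 and 328 CPM per kb. mt-Co1 was thus 5.90 and 6.32 times as high as mt-Co2 of the same complex.

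That gap narrowed when the copies were counted with their genes. Gm28661 held 1180 and 1258 CPM, which was 82.6% and 84.9% of the reads of the mt-Co2 and Gm28661 pair. With all its nuclear copies, mt-Co2 had 2090 and 2168 CPM per kb, 6.16-fold above its own entry. mt-Co1 with copies was 1.15 and 1.10 times as high as that. The shares of the other copies were smaller, and Gm10925 held 45.9% and 40.9% of its pair with mt-Atp6. Gm28437 held 24.4% and 28.0% beside mt-Co3, and Gm29216 held 10.8% and 13.3% beside mt-Co1. No count at all was given to Gm28438, Gm10222 and Gm28439 in any of the 4 columns, although the last 2 match mt-Nd4l and mt-Nd4 without a difference. The other 10 nuclear copies, on other chromosomes, had at most 11.2 reads in a column. Whether any read came from the nucleus was not tested, and the levels of mt-Co1, mt-Co2, mt-Co3 and mt-Atp6 depend on how the authors' counting divided reads. The same may hold for mt-Nd3, mt-Nd4l and mt-Nd4, whose copies were given 0 reads, and counts that are not whole were also deposited for mt-Atp8 and mt-Nd5.

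**Figure D1:**
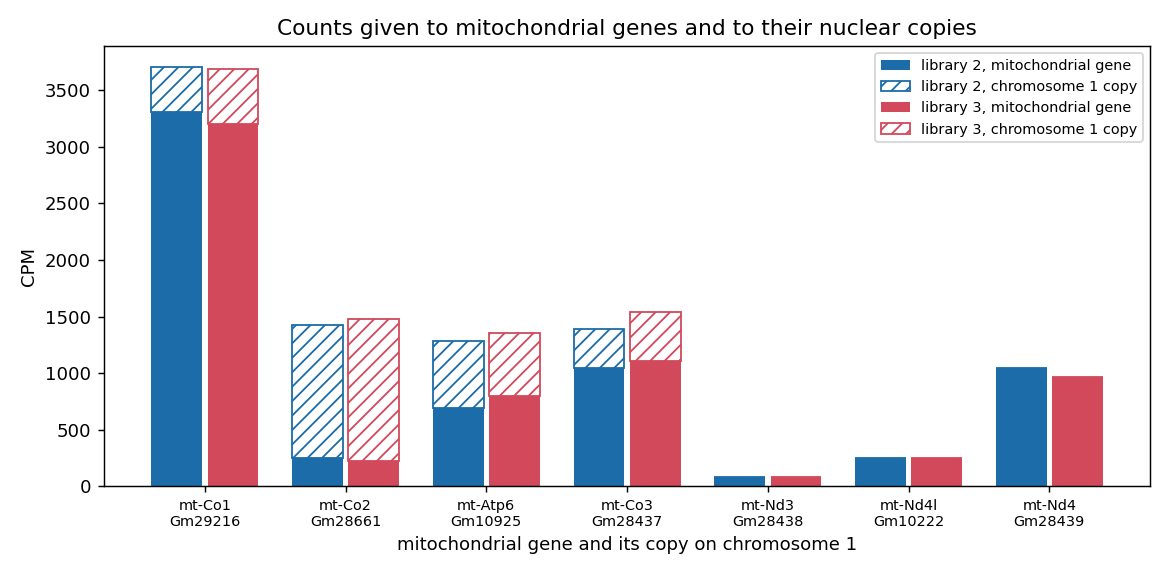
Bars show CPM (vertical axis) in library 2 and library 3 for 7 mitochondrial genes (solid) and, stacked on top, for the matching pseudogene on chromosome 1 (hatched). The hatched part is the larger one for mt-Co2, 82.6% and 84.9% of the pair, and absent for mt-Nd3, mt-Nd4l and mt-Nd4.

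Complex V, the ATP synthase, has a pair of mitochondrial genes in its membrane part. mt-Atp6, the subunit that forms the proton path with the ring of c subunits, had 1022 and 1175 CPM per kb, or 1889 and 1989 with copies. mt-Atp8 (7766 to 7969), a small subunit on the same messenger RNA, had 491 and 555 CPM per kb. The mt-Atp6 level was 2.08 and 2.12 times that of mt-Atp8, and 3.85 and 3.59 times with copies. mt-Atp8 is the shortest protein gene, with 204 bases, and no nuclear gene had it as its longest match of at least 100 bases. Its last 43 bases, shared with mt-Atp6, also lie in the copy Gm10925. The pair thus differs in length and in shared sequence as well.

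Complex III has 1 mitochondrial gene, mt-Cytb (14145 to 15288), which encodes cytochrome b, the subunit that carries the quinone sites. It had 1271 and 1376 CPM per kb. Its range overlapped that of mt-Co3, the neighbour above it in level, and lay above that of mt-Atp6. With copies added, mt-Cytb ranked below all 3 complex IV genes and mt-Atp6.

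Complex I, the NADH dehydrogenase at the entry of the chain, has 7 mitochondrial genes, all encoding membrane subunits, and their levels spanned a wide range. mt-Nd1 (2751 to 3707) had 959 and 978 CPM per kb. The large subunit genes mt-Nd5 (11742 to 13565) and mt-Nd4 (10167 to 11544), which encode proton-pumping subunits, had 759 and 729 and 756 and 702 CPM per kb, ranges that overlapped. mt-Nd4l, on the same messenger RNA as mt-Nd4, stood close to it, at 845 and 833 CPM per kb. mt-Nd2 (3914 to 4951), the third of the pumping subunits, was lower, at 289 and 345 CPM per kb. mt-Nd3 (9459 to 9806), separated from mt-Nd4l by only the tRNA gene mt-Tr, had 250 and 240 CPM per kb. The mt-Nd4 level was 3.03 and 2.93 times that of mt-Nd3.

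The lowest protein gene was mt-Nd6 (13552 to 14070), the single one encoded on the minus strand, at 211 and 219 CPM per kb. Its last 14 bases overlap the end of mt-Nd5 on the other strand, and the strand setting of the counting is not given in the sources used here. mt-Co1 stood 10.2 and 9.46 times above mt-Nd6. In the order of levels taken from the genes' own entries, mt-Co3 and mt-Cytb, mt-Nd5 and mt-Nd4, and mt-Co2 and mt-Nd2 were neighbours whose ranges over the libraries overlapped; the other neighbours did not overlap. With copies added, the order began with mt-Co1, mt-Co2, mt-Atp6 and mt-Co3, and mt-Atp6 and mt-Co3 overlapped.

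**Figure D2:**
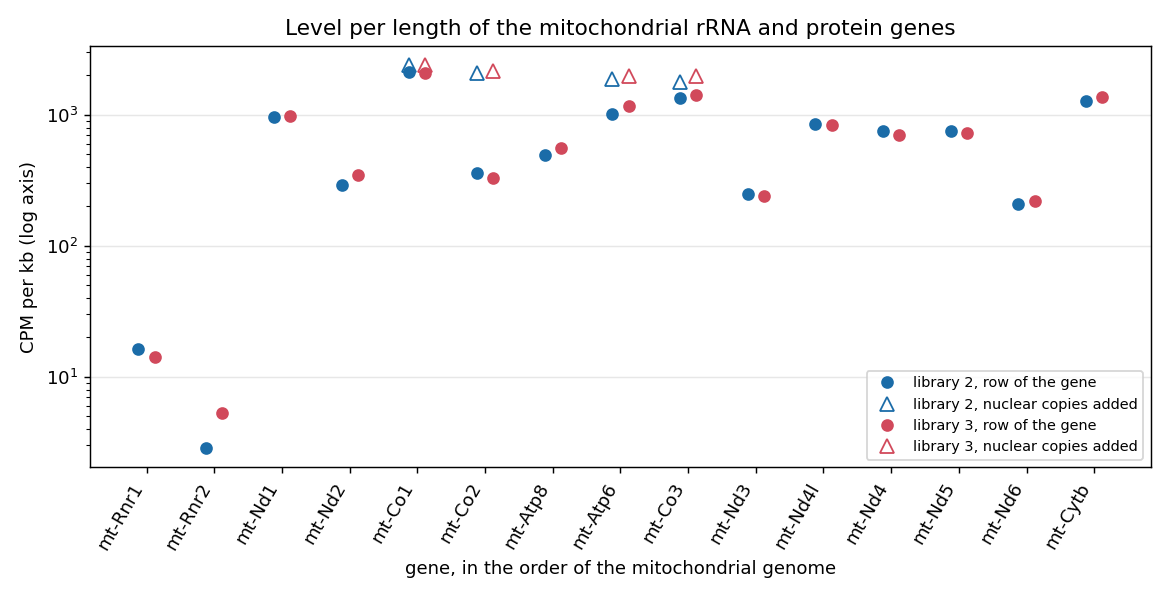
Points show the CPM per kb (log axis) of the 2 rRNA and 13 protein genes in library 2 and library 3, in the order of the mitochondrial genome; triangles add the nuclear copies where these raise the level by more than 10%. mt-Co2 moves from 363 and 328 to 2090 and 2168 CPM per kb, beside mt-Co1. Both rRNA genes, counted after the removal of rRNA, lie far below every protein gene.

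The rRNA genes were measured after the removal of rRNA by an RNase H method, per the labels' protocols, so their counts are what was left of them. mt-Rnr1 (70 to 1024) had 302 reads in library 2 and 307 in library 3, or 15.6 and 13.6 CPM. mt-Rnr2 (1094 to 2675) had 88.0 reads (exact Poisson 95% interval 70.6 to 108) and 189 or 190 reads, or 4.54 and 8.40 CPM. These genes are transcribed ahead of mt-Nd1 on the same strand. mt-Nd1 was 335 and 184 times as high per kb as mt-Rnr2. Gm26917, annotated as a long non-coding RNA gene next to the nuclear rRNA gene CT010467.1, held 12.1% and 11.8% of all counts, and its relation to the mitochondrial rRNA counts was not tested.

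tRNA genes were at the limit of detection. Their transcripts are 59 to 75 bases long, less than the 150 bases of 1 sequencing read. Of the 22, 17 had no read in any column, which at these depths allows up to 0.132 to 0.156 CPM in a column (3 counts). The other 5 were mt-Tc, with 2 reads in library 2, mt-Te and mt-Ts1, with 1 read in library 2, and mt-Tk and mt-Tn, with 1 read in library 3. No tRNA gene reached 1 CPM, so no order among them was detectable at this depth. The shortest and the longest tRNA gene and the one with the most reads show how short these genes are.
mt-Ts2: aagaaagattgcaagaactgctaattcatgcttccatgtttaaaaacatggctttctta
mt-Tl1: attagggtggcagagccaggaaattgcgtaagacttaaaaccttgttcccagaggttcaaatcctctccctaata
mt-Tc: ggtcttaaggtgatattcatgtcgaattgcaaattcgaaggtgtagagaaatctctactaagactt

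Fgf9_null and Fgf9_het were compared as labelled, although each library is present under both labels. None of the 15 mitochondrial genes that passed the filter on low counts passed the test. The filter removed all 22 tRNA genes. edgeR's quasi-likelihood test called 0 of the 15 and 0 of all 19987 genes (0%) at the adjusted threshold of 0.05. At an unadjusted p under 0.05 stood 4 of 19987 genes (0.0200%), and 0 of these were mitochondrial. The 4 were Rn7s1, Rn7s6, Gm19220 and Gm26461, named after their values were seen. Rn7s1, a 7SL RNA gene, had 529306 against 255292 reads in the replicate 2 columns and 588969 against 291630 in the replicate 3 columns, more in each case for Fgf9_null. The edgeR log2 folds of Fgf9_null over Fgf9_het were 1.03 for Rn7s1 and 5.47 for Rn7s6 (adjusted p = 0.643 for both) and 3.10 for Gm19220 and 2.67 for Gm26461 (adjusted p = 1 for both). Why these genes differ where nearly all others match was not tested. The count was 6 genes (0.0300%) in edgeR with a block for the replicate number and 3 (0.0150%) in DESeq2 (Rn7s6, Rn7s1 and Gm19220), with 0 mitochondrial genes in either. For the mitochondrial genes the contrast sets nearly identical columns against each other, so it was not read as an effect of Fgf9, and its p-values reflect the spread between columns alone.

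mt-Co3 was the mitochondrial gene that differed most between the replicate 3 columns. In the replicate 3 columns its count was 25407 for Fgf9_null and 24614 for Fgf9_het, a gap of 3.17%. In the replicate 2 columns it had 20364 and 20322 reads, a gap of 0.208%, where mt-Atp8 had the largest gap, 0.257%. The other 14 genes that passed the filter differed by at most 0.528% in either pair of columns. The nuclear copy Gm28437 moved the other way, with 9323 reads under Fgf9_null and 10138 under Fgf9_het in the replicate 3 columns. Their sum was 34730 and 34752 reads, a difference of -22.0 reads. The edgeR fit gave mt-Co3 a log2 difference (Fgf9_null minus Fgf9_het) of 0.025 (SE 0.061), adjusted p = 1, and -0.00047 with the copies added. With the replicate block, edgeR called Gm28437 at an adjusted p of 0.00538 with a log2 fold of -0.072. mt-Co3 was not called, at an adjusted p of 1 and an unadjusted p of 0.00507. Each block in that fit is 1 library under both labels, so its p-values do not measure the spread between samples. The same fit called Gm26917 at a log2 fold of only -0.00038.

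The columns were also compared over all 15 genes. A chi-square statistic per degree of freedom, which is near 1 for separate draws of reads, was 0.00562 between the replicate 2 columns and 0.843 between the replicate 3 columns. With nuclear copies added to their genes it was 0.000449 and 0.000358. Between columns of different number it was 42.4 under the Fgf9_null label and 39.9 under the Fgf9_het label. Of the 15 genes, 2 were equal within 0.001 reads in the replicate 2 columns and 1 in the replicate 3 columns. Over all genes with a summed count of 10 or more, 60.8% and 59.1% were equal. Most of the small remaining differences had 1 direction: 12 of the 15 genes had more reads under the Fgf9_het label in the replicate 2 columns, and 12 in the replicate 3 columns. The matching share over all genes was not counted, so this was not read as a trait of the mitochondrial genes.

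**Figure D3:**
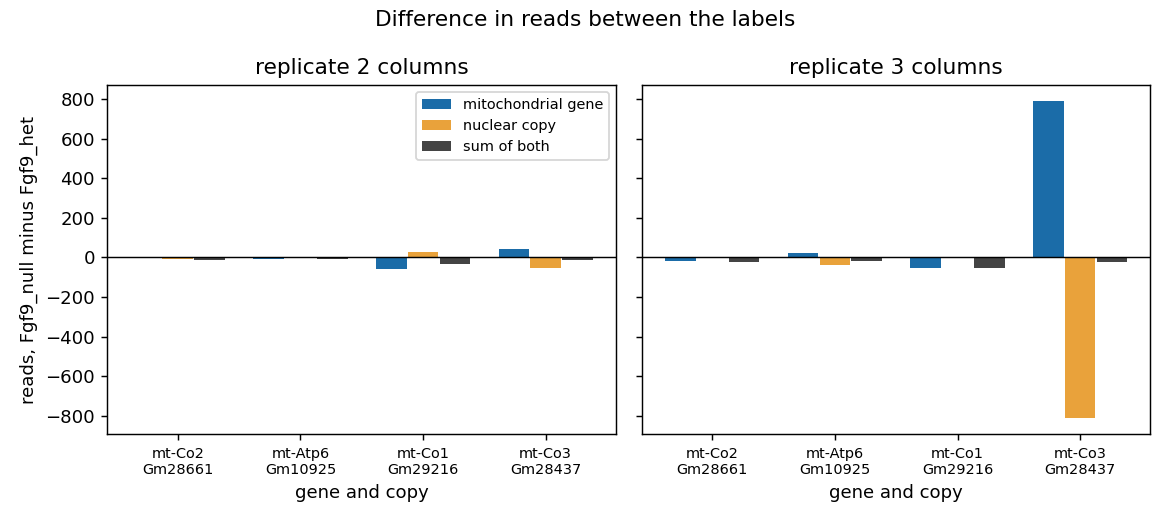
Bars show the reads under the Fgf9_null label minus those under the Fgf9_het label (vertical axis) for 4 mitochondrial genes, their chromosome 1 copies and the sum of each pair, in the replicate 2 and replicate 3 columns. In the replicate 3 columns mt-Co3 and Gm28437 differ by 793 and -815 reads and their sum by -22.0 reads.

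Library 2 and library 3 were then compared, as 1 sample each, with no test. Of the 15 genes, 8 were higher in library 3 and 7 in library 2, with a median ratio of library 3 over library 2 of 1.02; over the 16712 genes that reached 1 CPM in library 2 and in library 3, 45.8% were higher in library 3 and the median ratio was 0.989. A ratio past 1.5-fold in either direction was seen for 1 of the 15 genes and for 3.88% of all 16712. That gene was mt-Rnr2, with 4.54 and 8.40 CPM in libraries 2 and 3, 1.85-fold higher in library 3 (95% counting interval 1.43 to 2.41). mt-Rnr1 did not share this, with a ratio of 0.874 (0.743 to 1.03).

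Among the protein genes the ratio ran from 0.902 for mt-Co2 to 1.19 for mt-Nd2. mt-Nd2 went from 300.2 CPM in library 2 to 358 in library 3 (ratio interval 1.15 to 1.23). mt-Atp6 and mt-Atp8 were both higher in library 3, by 1.15-fold (1.12 to 1.18) and 1.13-fold (1.06 to 1.20). mt-Nd4 was higher in library 2, at 1042 CPM in library 2 against 968 in library 3 (ratio 0.928, interval 0.911 to 0.946). The intervals cover counting error only and are narrow because these genes have many reads; the median absolute fold between the libraries was 1.08 for the 15 genes and 1.08 for all 16712. Summed by complex, the 7 complex I genes had a ratio of 0.987, the 3 complex IV genes 0.984, mt-Cytb 1.08 and the complex V genes 1.15. With nuclear copies added, the ratio was 1.03 for complex IV and 1.06 for complex V, and stayed at 0.987 for complex I and 1.08 for mt-Cytb.

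Adding nuclear copies turned the mt-Co2 ratio from 0.902 to 1.04 and brought that of mt-Co1 from 0.967 to 0.996. The mt-Atp6 ratio went from 1.15 to 1.05, and that of mt-Co3 from 1.06 to 1.11. Which library had the higher mt-Co2 level therefore depended on where its reads were placed.

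**Figure D4:**
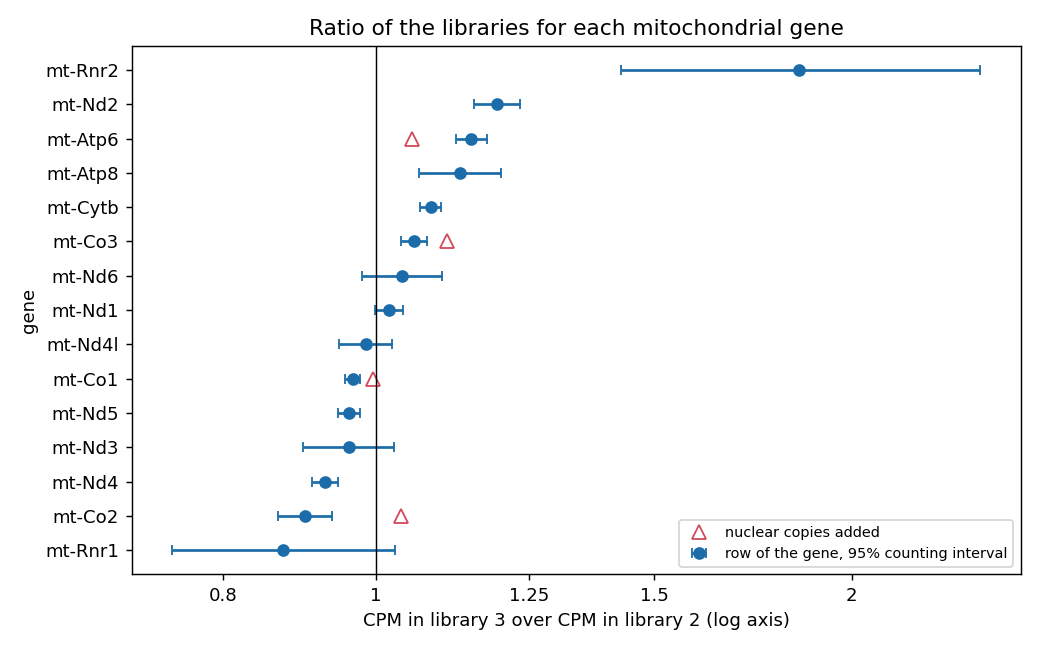
Points show CPM in library 3 over CPM in library 2 (log axis) for 15 mitochondrial genes, with the 95% counting interval as a bar; triangles show the ratio with nuclear copies added. mt-Rnr2 stands apart at 1.85, and the mt-Co2 triangle lies on the other side of 1 from its point.

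Nuclear genes of the same complexes were read as background to these levels. Rows were found for 80 of the 81 listed subunit genes of complexes I to V. Each of the 13 mitochondrial protein genes stood above every one of these 80 per kb. The median was 744 CPM per kb for the mitochondrial protein genes and 24.8 CPM per kb for the nuclear ones. The nuclear genes were led by Atp5a1, the alpha subunit of the ATP synthase, at 172 ± 9.54 CPM per kb, and Cox8a of complex IV, at 168 ± 4.36 CPM per kb. Uqcr10 of complex III had 79.5 ± 12.7 CPM per kb, and Sdhd of complex II had 42.0 ± 1.72 CPM per kb. Nuclear lengths are those of all annotated exons of a gene merged, which lowers the value of genes with long or rarely used exons.

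Between the libraries the nuclear subunit genes leaned to library 3. Of the 78 that reached 1 CPM in each library, 68 were higher in library 3 and 0 differed past 1.5-fold, with a median ratio of 1.08. Over all 16712 genes, 45.8% were higher in library 3 and 3.88% differed past 1.5-fold. Of the 13 mitochondrial protein genes, 7 were higher in library 3, or 8 with copies added. Cell type markers moved between the libraries too. Summed levels in library 3 against library 2 were 616 against 520 CPM for 3 blood genes and 45.6 against 25.8 for 3 liver genes. They were 197 against 168 for the endothelial genes Cdh5 and Kdr and 4050 against 3873 for 3 mesenchyme and smooth muscle genes. The 4 epithelial genes summed to 5642 against 6010, mostly through Cym, at 4502 against 4882. The epithelial gene Cdh1 had 387 against 391, Krt8 588 against 574 and Muc5ac 166 against 162. Csf1r of macrophages had 39.4 against 37.8, and 2 neuron genes 48.4 against 48.0. The part of these cell type markers in the subunit genes was not tested.

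**Figure D5:**
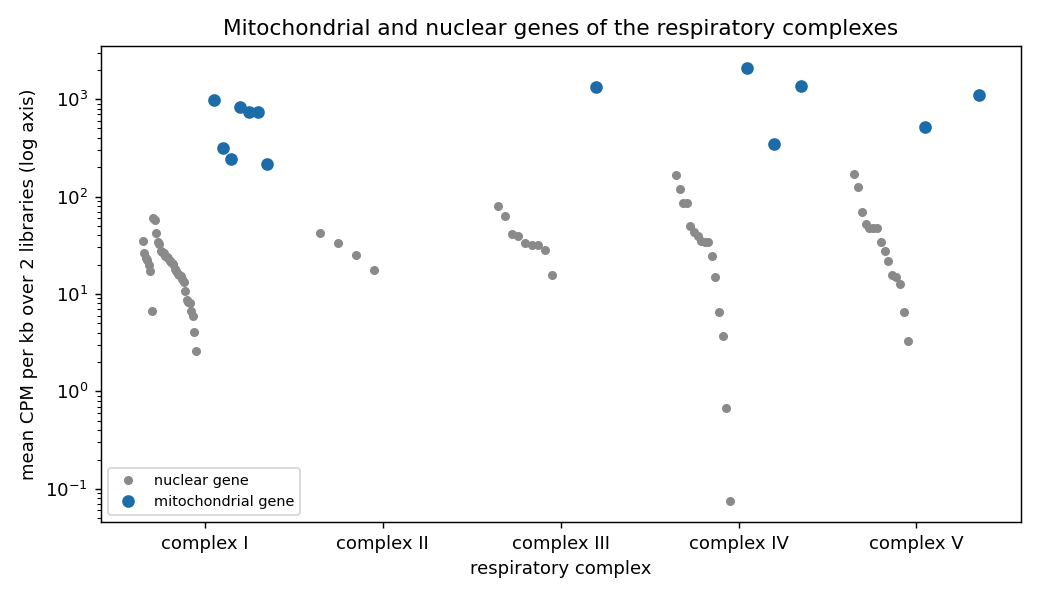
Points show the mean CPM per kb over both libraries (log axis) of nuclear and mitochondrial genes of each respiratory complex; complex II has no mitochondrial gene. The lowest mitochondrial protein gene, mt-Nd6 at 215 CPM per kb, lies above the highest nuclear gene, Atp5a1 at 172 CPM per kb.

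A further 6 lists held the nuclear genes that copy, transcribe, process and translate the mitochondrial genome and 9 regulators of mitochondrial biogenesis. Their list medians were 2.14 (transcription) to 7.97 CPM per kb (regulators), against 18.1 to 34.7 for the lists of subunit genes, though single genes overlapped. All 94 entries (Tfam is in 2 lists) reached 1 CPM in each library. Polrmt, the mitochondrial RNA polymerase, had 7.88 ± 0.519 CPM per kb, and Tfam, which packages the genome and starts transcription, had 5.54 ± 0.117. Polg, the DNA polymerase, had 7.89 ± 0.146 CPM per kb. Hsd17b10, a subunit of the RNase P that cuts tRNAs at their start, led the processing list at 22.5 ± 2.12 CPM per kb. Grsf1, an RNA-binding protein of mitochondrial RNA granules, had 15.3 ± 0.127 CPM per kb. Tufm, the mitochondrial elongation factor, stood at 31.8 ± 0.300 CPM per kb. Of the 94, 45 were higher in library 3 and 49 in library 2, near the 45.8% of all 16712 genes higher in library 3. Past 1.5-fold stood 1 of the 94, beside 3.88% of all genes. It was the leucyl-tRNA synthetase gene Lars2, with 47.1 CPM in library 2 against 72.5 in library 3. Lars2 was named after its value was seen. Between the labels edgeR called 0 of the 78 tested subunit genes and 0 of these 94 entries, with log2 folds between -0.014 and 0.0092.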

How the data were processed

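Salmon 1.8.0, Trimmomatic 0.33, FastQC 0.10 and edgeR appear in the submitters' processing notes, as do GRCm38 and mm10, with no role or order. The transcript index and the strand setting of the counting are not given. The deposited values are the authors' estimated counts for Ensembl genes, with no scaling for depth. Columns were matched to samples by title, and 2 value columns without a name were not used; whether the header is shifted against the values could not be settled. After rounding, edgeR 4.0.16 under R 4.3.3 was used for the test (TMM, filterByExpr, quasi-likelihood F test, Benjamini-Hochberg adjustment over all genes tested, threshold 0.05); DESeq2 1.42.0 and limma 3.58.1 were alternatives. On simulated separate libraries over 51098 genes, edgeR recovered 94% of genes changed 2-fold and 100% of those changed 4-fold with 12 false calls, which does not carry over to duplicated columns. Nuclear copies were found with blastn 2.17.0 in GENCODE M21 transcripts, and coordinates come from that GRCm38 annotation. All 37 genes were described by class; of each nuclear list the 3 highest per kb and any called gene could be named, and not all of them are. Members and lists were chosen with earlier results of these data known. Intervals are exact Poisson or conditional binomial intervals at 95%. The replicate numbers were taken to pair columns of 1 library. Of genes with a summed count of 10 or more, 60.8% (replicate 2) and 59.1% (replicate 3) were equal within 0.001 reads. Over the 15 mitochondrial genes the chi-square values were 0.000449 and 0.000358 once nuclear copies were added. Without the copies the replicate 3 value was 0.843, which alone does not tell 1 library from separate draws.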

Additional observations from a re-analysis of the deposited data

How the results depend on the processing

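edgeR called 0 genes under RLE factors as well, and likewise with both other filters, limma-voom and with nuclear copies added (the last chosen after seeing the data); DESeq2 called 3 genes, edgeR with the replicate block called 6, each block being 1 library; leaving out 1 column gave 1 to 2 (2 without either Fgf9_null column, 1 without either Fgf9_het column), where the spread of the single column was taken from the other label. No setting that kept all columns called a mitochondrial gene. Same-numbered columns were nearly identical for these genes, so such a call could hardly arise, and its absence is no check on an effect of Fgf9. Of 165 log2 folds of the 15 genes under other settings, 0 passed the threshold and 34 changed sign; they lay between -0.0050 and 0.026, and between -0.53 and 0.53 with 1 column left out. Leaving 7SL, 7SK and nuclear ribosomal RNA out of the column total moved the sums of all, protein and rRNA genes by over 1 SD. TMM scaling did not. The sums of all and protein genes also moved by more than 1 SD with the copies. The tRNA sum of 0.147 CPM, from 6 reads, was 0.0886 without replicate 2 and 0.206 without replicate 3. The genes left out there as 7SL, 7SK and nuclear ribosomal RNA held 17.3% and 16.8% of all counts in libraries 2 and 3. Gm26917, with 12.1% and 11.8%, was counted among them. Without these RNAs in the column total, all mitochondrial genes summed to 13280 CPM, protein genes to 13254 CPM and rRNA genes to 25.4 CPM. With nuclear copies added, all genes summed to 13644 CPM and protein genes to 13622 CPM. The ratio of library 3 over library 2, 1.01 for all genes and for protein genes, was 1.004 for both without those RNAs, 1.03 for both with TMM scaling, and 1.03 for both with copies. Columns of 1 label alone moved 0 of 15 gene levels by more than 1 SD. The tRNA genes had too few reads to compare, and the part of depth and of transcript length in this was not tested. Every comparison is limited by 2 libraries.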
